A study of Mus musculus with 8 samples.

Results

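The 10 mouse genes of glucose uptake and glycolysis described here, Slc2a1, Slc2a3, Hk1, Hk2, Pfkp, Pfkfb3, Aldoa, Pgk1, Pkm and Ldha, were taken by gene name from a table of RNAseq read counts that holds 54532 genes. The libraries were made from FACS-sorted GFP+ (mG+) cells of female mice aged 8 months. The KO genotype, EC-Tert-KO, is Tie2e-cre; TERTfl/fl; mTmG, and its littermate control, WT, is Tie2e-cre; TERT+/+; mTmG, so that cells of both genotypes carry the Tie2e-driven Cre and the membrane reporter. The 4 tissue and diet groups were subcutaneous adipose tissue (SAT) of mice fed a high fat diet (HFD) from month 1 to month 8, and SAT, visceral adipose tissue (VAT) and skeletal muscle of mice fed chow, with 1 WT and 1 KO library in each. These 8 libraries address how endothelial loss of Tert, the reverse transcriptase subunit of telomerase, changes cells of each tissue.

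Glucose enters endothelial cells through facilitative transporters, is trapped by hexokinase, and is split and oxidized to pyruvate, which lactate dehydrogenase converts to lactate. Endothelial cells are known to draw much of their ATP from this route, and the enzyme encoded by Pfkfb3 is a known accelerator of it in sprouting vessels. Most steps can be served by more than 1 isoenzyme, and immune, stromal and adipose cells use their own sets of them.

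Library totals ran from 6214269 counts (SAT on HFD, WT) to 18855772 (SAT on chow, WT). Every one of the 10 genes passed the filter used here, a mean of at least 10 counts, and the lowest count of a member in any library was 243, so that none was limited by the floor of 3 counts (0.181 to 0.451 CPM, counts scaled by TMM to a library of 1000000). Tert itself was counted 114 and 0 times (WT and KO) in SAT on HFD, 70 and 11 times in SAT on chow and 24 and 7 times in muscle. In VAT it was counted 3 times in the library labelled WT and 9 times in the library labelled KO, which does not follow the labels and is near the floor in both, so that WT and KO stand for the labels alone wherever VAT values are given. The 19 endothelial markers summed to 488 to 1051 CPM in the 4 SAT libraries and to 2807 to 4002 CPM in VAT and muscle, and Pecam1, Cdh5 and Kdr were counted in every library. Markers of other cells were present in the sort. In the 4 SAT libraries the 14 stromal markers summed to 1542 to 4932 CPM, the T cell markers to 1824 to 4664 CPM and the 8 B cell markers to 1469 to 2321 CPM. Each of these sums exceeded the endothelial sum in every SAT library. The stromal sums also exceeded it in VAT (4478 and 6229 CPM, labelled WT and KO) but not in muscle (2200 and 3279 CPM). Such sums over unlike lists are not shares of cells. The 12 neutrophil markers summed to 28110 and 32420 CPM (WT and KO) in muscle against at most 514 CPM elsewhere, and the 11 macrophage markers to 9811 and 9730 CPM in VAT against at most 873 CPM elsewhere. The WT library of SAT on chow stood apart, with Malat1, a nuclear RNA, at 292 CPM against 2149 to 5836 CPM in the other 7, and with the 10 T cell markers at 4664 CPM against 1824 CPM in its KO partner. Several results that rest on that library are also given without it, but not all. In sorted bulk samples, fewer cells of a type and less RNA per cell cannot be told apart.

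Upstream sequence was read for the members because 3 enzymes of the lower pathway, Aldoa, Pgk1 and Ldha, and the hexokinase Hk2 lay on opposite sides of equality between KO and WT cells of SAT on chow. RefSeq starts on GRCm38.p6 were matched by symbol for 9 of the 10 genes, with 15 starts among them, and not for Slc2a3. The 250 bases before each start were searched on both strands for ACGTG, the core that hypoxia-inducible factors are known to bind, which also lies within the E-box CACGTG. In the lines that follow, 5′ to 3′ on the strand of the gene, with no annotated exon inside, capitals mark ACGTG or its reverse complement CACGT.
Hk2, chr6:82774455-82774704, minus strand: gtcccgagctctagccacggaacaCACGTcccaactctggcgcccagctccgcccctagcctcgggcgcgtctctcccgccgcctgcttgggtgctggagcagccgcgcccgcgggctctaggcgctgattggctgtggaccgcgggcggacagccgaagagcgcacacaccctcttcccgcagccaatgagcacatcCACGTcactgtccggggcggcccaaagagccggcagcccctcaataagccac
Aldoa, chr7:126799255-126799504, minus strand: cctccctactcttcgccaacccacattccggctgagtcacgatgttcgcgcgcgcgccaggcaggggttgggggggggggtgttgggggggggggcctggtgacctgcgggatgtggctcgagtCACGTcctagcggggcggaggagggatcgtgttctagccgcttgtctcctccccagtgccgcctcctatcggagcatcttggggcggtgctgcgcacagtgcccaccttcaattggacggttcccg
Pgk1, chrX:106186850-106187099, plus strand: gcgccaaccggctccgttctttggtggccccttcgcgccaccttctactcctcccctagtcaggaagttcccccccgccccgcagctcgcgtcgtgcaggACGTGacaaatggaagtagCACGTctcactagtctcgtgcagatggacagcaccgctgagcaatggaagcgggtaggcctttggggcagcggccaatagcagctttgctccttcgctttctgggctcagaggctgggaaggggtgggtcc
Ldha, chr7:46845554-46845803, plus strand: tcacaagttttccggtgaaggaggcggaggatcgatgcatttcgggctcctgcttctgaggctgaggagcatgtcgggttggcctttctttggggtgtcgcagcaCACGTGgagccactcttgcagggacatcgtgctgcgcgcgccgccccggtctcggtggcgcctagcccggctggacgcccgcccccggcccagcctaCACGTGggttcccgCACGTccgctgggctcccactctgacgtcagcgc
The core was present in 9 of the 15 member windows (60%), against 5444 of all 32851 windows of 250 bases (16.6%). By gene, it lay at some start of 7 of the 9, a count with no such share beside it. It was absent from the windows of Hk1 and Pfkp and from a start each of Ldha, Pkm and Aldoa, which are not shown. The variant GCGTG, searched likewise, was present in 28.2% of all windows. In the exon-free stretches of the members it lay before Slc2a1 and Pfkp and at a start each of Pfkfb3 and Ldha. The windows of the members include overlapping ones of Aldoa, and the match of letters says nothing of binding in these cells.

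Slc2a3 (ENSMUSG00000003153, GRCm38 chr6:122727809-122801640) encodes GLUT3, a high-affinity glucose transporter of neurons and leukocytes, and was the member that differed most firmly between tissues. Its level was 454 and 430 CPM (WT and KO) in muscle, 95.7 and 101 CPM in VAT, 82.2 and 96.7 CPM in SAT on chow and 81.7 and 108 CPM in SAT on HFD. Both muscle libraries thus lay above all 6 others, and the 3 adipose groups overlapped. On the log2 scale Slc2a3 rose in muscle over SAT on chow by 2.31 ± 0.30 (SE; 2 libraries a group; edgeR quasi-likelihood test, Benjamini-Hochberg adjusted p = 0.0181) and in muscle over VAT by 2.17 ± 0.30 (adjusted p = 0.0138). It was the only member called in these comparisons, where 1.26% and 1.93% of the 16971 tested genes were called. Both calls were lost on leaving out a muscle library, and the call against VAT also on leaving out a VAT library. Leaving out the WT or the KO library of muscle gave adjusted p-values of 0.141 and 0.108 against SAT, and leaving out any library of VAT or muscle gave 0.0993 to 0.210 against VAT, with log2 differences of 2.01 to 2.47. The neutrophil markers moved with this difference: all 12 were higher in both muscle libraries than in every other library, Ly6g, a defining one, was at 71.3 and 97.3 CPM in muscle and at most 0.605 CPM elsewhere, and their part in the level of Slc2a3 was not tested.

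**Figure D1:**
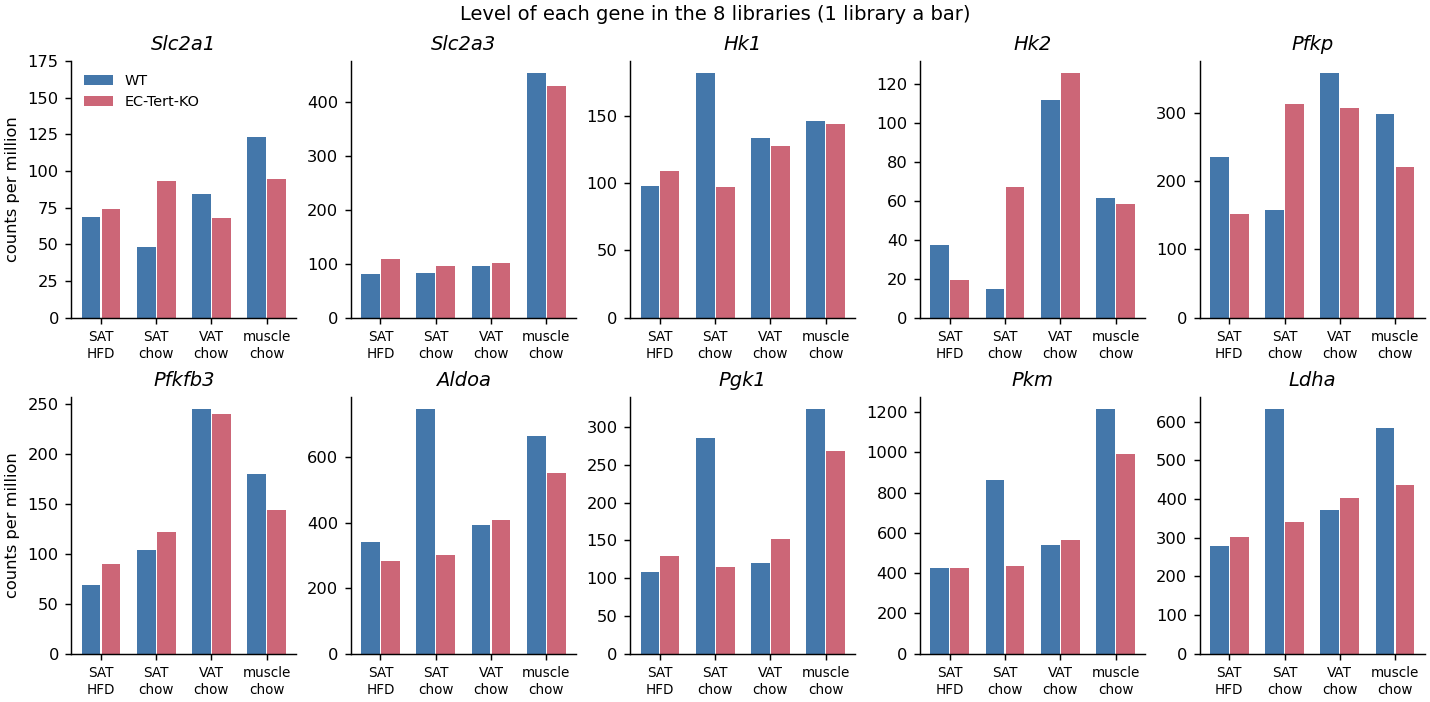
Level of each of the 10 genes in CPM (counts scaled by TMM to a library of 1000000, vertical axis from 0) in the WT (blue) and EC-Tert-KO (red) library of each tissue and diet, 1 library a bar. Slc2a3 stood at 430 to 454 CPM in muscle and at most 108 CPM elsewhere, and Hk2 and Pfkfb3 were highest in VAT, while Aldoa, Pgk1, Pkm and Ldha were high in the WT library of SAT on chow and in both muscle libraries.

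Slc2a1 (ENSMUSG00000028645, GRCm38 chr4:119108711-119137983) encodes GLUT1, the main glucose transporter of endothelium. It was counted at 123 and 94.7 CPM (WT and KO) in muscle, 84.1 and 68.1 CPM in VAT, 47.9 and 93.2 CPM in SAT on chow and 68.6 and 74.4 CPM in SAT on HFD. Both muscle libraries lay above the 6 adipose ones, narrowly (94.7 CPM against 93.2 CPM in KO cells of SAT on chow), and the adipose groups overlapped. No tissue or diet difference of Slc2a1 passed the test (muscle over SAT on chow 0.65 ± 0.38 on the log2 scale, adjusted p = 0.611). The ratio of Slc2a3 to Slc2a1 per unit of gene length needs no scaling between libraries. It was 1.78 (95% Clopper-Pearson interval 1.70 to 1.87, which like all intervals here covers counting error only) in WT and 2.19 (2.07 to 2.33) in KO muscle, and between 0.502 and 0.829 in the 6 adipose libraries. Per length, Slc2a3 thus exceeded Slc2a1 in muscle and not in fat. By counts not divided by length, Slc2a3 exceeded Slc2a1 in every library (855 against 751 in the VAT library labelled WT). The order in fat therefore rests on the gene lengths used. Slc2a4, the insulin-responsive transporter of adipocytes and muscle fibres, was counted 0 to 83 times a library and reached at most 6.11 CPM, in the library of VAT labelled KO.

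**Figure D2:**
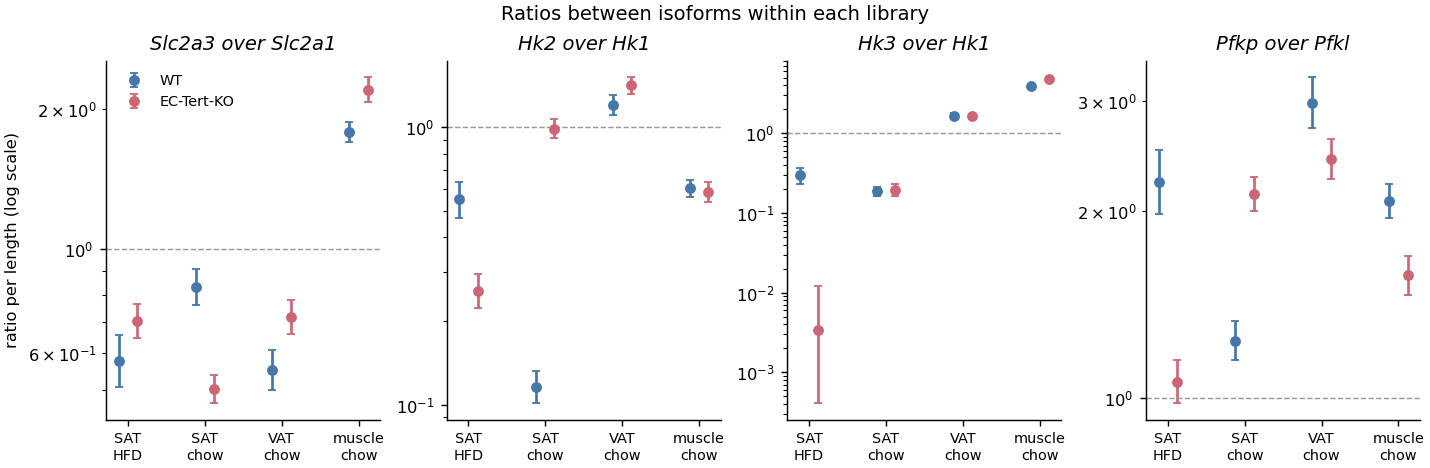
Ratio of 2 isoforms per unit of gene length within each library (log axis) in WT (blue) and EC-Tert-KO (red), with 95% Clopper-Pearson intervals for counting error. Slc2a3 over Slc2a1 lay above 1 in muscle only, Hk3 over Hk1 lay above 1 in VAT and muscle, and Hk2 over Hk1 ran from 0.116 to 1.41.

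Of the hexokinases, which phosphorylate glucose, Hk1 (ENSMUSG00000037012, GRCm38 chr10:62268855-62379908) was the steady one. Its level ranged from 97.1 to 182 CPM, both extremes being the KO and the WT library of SAT on chow, and no tissue or diet difference passed the test. Hk2 (ENSMUSG00000000628, GRCm38 chr6:82725025-82774454), the inducible and insulin-regulated form, had the widest range of the 10 genes, 8.56 times between the lowest and the highest library. It was counted at 112 and 126 CPM (WT and KO) in VAT, 61.5 and 58.6 CPM in muscle, 14.7 and 67.0 CPM in SAT on chow and 37.5 and 19.6 CPM in SAT on HFD. Both VAT libraries lay above the other 6. The log2 difference between VAT and SAT on chow was 1.63 ± 0.65, which did not pass the test (adjusted p = 0.211). The 2 SAT libraries lay on either side of both muscle libraries. Without the KO library of SAT on chow it was 3.17 (adjusted p = 0.00728), and without the WT library it was not called. Per length, Hk2 was 1.20 (1.10 to 1.31) and 1.41 (1.32 to 1.51) times Hk1 in the libraries of VAT labelled WT and KO, 0.601 and 0.582 times in muscle, 0.116 and 0.987 times in SAT on chow and 0.548 and 0.257 times in SAT on HFD. Hk3, a hexokinase of myeloid cells, differed over the 4 groups (adjusted p = 0.0372, a call lost on leaving out any library of VAT or muscle), and per length it was 3.90 (3.71 to 4.10) and 4.77 (4.52 to 5.04) times Hk1 in muscle, 1.67 and 1.65 times in VAT and at most 0.296 times in SAT. By counts not divided by length, Hk2 lay below Hk1 in every library and Hk3 exceeded Hk1 in muscle only. In VAT, Hk3 had 858 and 1230 counts against 1193 and 1731 of Hk1 (libraries labelled WT and KO). The groups in which Hk3 exceeded Hk1 per length were those with the high neutrophil and macrophage marker sums given above, whose part in the hexokinase levels was not tested.

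Pfkfb3 (ENSMUSG00000026773, GRCm38 chr2:11471433-11554077), which makes the activator of phosphofructokinase, followed the same order of group means as Hk2. Its level was 244 and 240 CPM (WT and KO) in VAT, 180 and 143 CPM in muscle, 104 and 122 CPM in SAT on chow and 68.5 and 89.3 CPM in SAT on HFD. The 4 groups did not overlap, and the test over all 4 called Pfkfb3 (adjusted p = 0.0481). Together with Slc2a3 (adjusted p = 0.00444) this made 2 of 10 members called, beside 7.83% of all genes. These calls rested on single libraries. Without the WT library of muscle neither member was called, and without any other library outside SAT on chow fewer were called than with all. With a library of SAT on chow left out more members were called, in fits with 1 library in that group. Calls over all genes also ranged widely on leaving out a library, so that this rise is not read as a result about the members. Between VAT and SAT on chow the difference of Pfkfb3 was 1.11 ± 0.30 on the log2 scale and missed the threshold (adjusted p = 0.0842, and 0.00285 by DESeq2), so that 0 of 10 members were called there, beside 5.05% of all genes, with 2 members at an unadjusted p under 0.05, and 1 called by DESeq2. The macrophage markers moved with the VAT levels of Pfkfb3 and Hk2, all 11 being higher in both VAT libraries than in every other library, and their part was not tested. Of the related enzymes, Pfkfb4 rose in muscle over SAT on chow by 2.41 ± 0.34 (adjusted p = 0.0232, and up to 0.253 without a muscle library), while Pfkfb1 and Pfkfb2 were low in every library, at most 3.31 and 16.6 CPM.

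Pfkp (ENSMUSG00000021196, GRCm38 chr13:6579768-6648777), the platelet form of phosphofructokinase, had the highest level of its 3 isoforms per length. It was counted at 358 and 307 CPM (WT and KO) in VAT, 297 and 221 CPM in muscle, 158 and 313 CPM in SAT on chow and 235 and 152 CPM in SAT on HFD, with overlap between the groups and no difference that passed the test. Per length Pfkp was 1.06 to 2.98 times Pfkl, the liver form, the lowest ratio (0.981 to 1.15, KO cells of SAT on HFD) being within counting error of equality, and Pfkm, the muscle form, was 0.244 to 0.649 times Pfkl, with no excess of Pfkm in the muscle libraries (0.244 and 0.384). Pfkp overlaps Pitrm1 on the opposite strand, a gene whose counts amount to 20.3% of those of Pfkp, and the use of strand in the counting is not given in the sources used here.

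The enzymes of the lower pathway were the abundant members. Per kilobase, the median over the 8 libraries was 138 CPM for Aldoa (ENSMUSG00000030695, GRCm38 chr7:126795234-126800751), the aldolase of muscle and most other tissues, 117 CPM for Ldha (ENSMUSG00000063229, GRCm38 chr7:46841475-46855627), the lactate dehydrogenase subunit that favours lactate formation, and 110 CPM for Pkm (ENSMUSG00000032294, GRCm38 chr9:59656368-59679375), the pyruvate kinase of most adult tissues. It was 62.7 CPM per kilobase for Pgk1 (ENSMUSG00000062070, GRCm38 chrX:106187100-106203699), which yields ATP, and between 10.1 and 22.6 for the transporters, hexokinases, Pfkp and Pfkfb3. Pkm was counted at 1214 and 990 CPM (WT and KO) in muscle, 540 and 564 CPM in VAT, 864 and 434 CPM in SAT on chow and 428 and 427 CPM in SAT on HFD. Ldha, Pgk1 and Aldoa had the same outline, with 631, 285 and 747 CPM in the WT and 340, 114 and 303 CPM in the KO library of SAT on chow. Muscle exceeded VAT without overlap for all 4 enzymes, a separation whose share over all genes was not counted. None of these differences passed the test, the nearest being Pkm (0.98 ± 0.39, adjusted p = 0.329) and Pgk1 (1.10 ± 0.44, adjusted p = 0.332). With either library of SAT on chow left out both were called, at adjusted p-values of 0.0323 and 0.0272 without WT and of 0.0391 and 0.0314 without KO. The isoenzymes Aldoc and Ldhb were minor, at most 0.0215 times Aldoa and 0.0975 times Ldha per length. AC160637.1, which overlaps Pkm on the same strand, had 9.95% as many counts as Pkm, and the pseudogene copies of Ldha, Pgk1 and Aldoa that the table names had at most 0.308% as many as their parent gene.

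Across the tissue comparisons as a whole, all 10 members had positive log2 differences in muscle over SAT on chow, with a median of 0.57 beside -0.09 over all tested genes. This holds for the 2 libraries of SAT on chow together. Hk1, Ldha and Aldoa were lower in both muscle libraries than in the WT library of SAT on chow (182, 631 and 747 CPM). Hk2 and Pfkp were lower in both than in the KO library (67.0 and 313 CPM). In muscle over VAT 7 members were positive, with a median of 0.45 beside 0.02. In VAT over SAT on chow 5 were positive, with a median of 0.03 beside -0.08. In SAT on HFD over SAT on chow 8 of 10 were negative, with a median of -0.46 beside -0.24, and 0 members were called by edgeR and 0 by DESeq2, beside 0% of all genes, with 0 members but 1354 of all genes at an unadjusted p under 0.05. The largest of these diet differences were those of Ldha (-0.69 ± 0.37) and Pgk1 (-0.69 ± 0.44). Without the WT library of SAT on chow, those of Pgk1, Pkm and Aldoa were 0.18, 0.01 and 0.03. For Ldha that value is not given here. Its KO library of SAT on chow was at 340 CPM, against 279 and 303 CPM (WT and KO) on HFD.

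**Figure D3:**
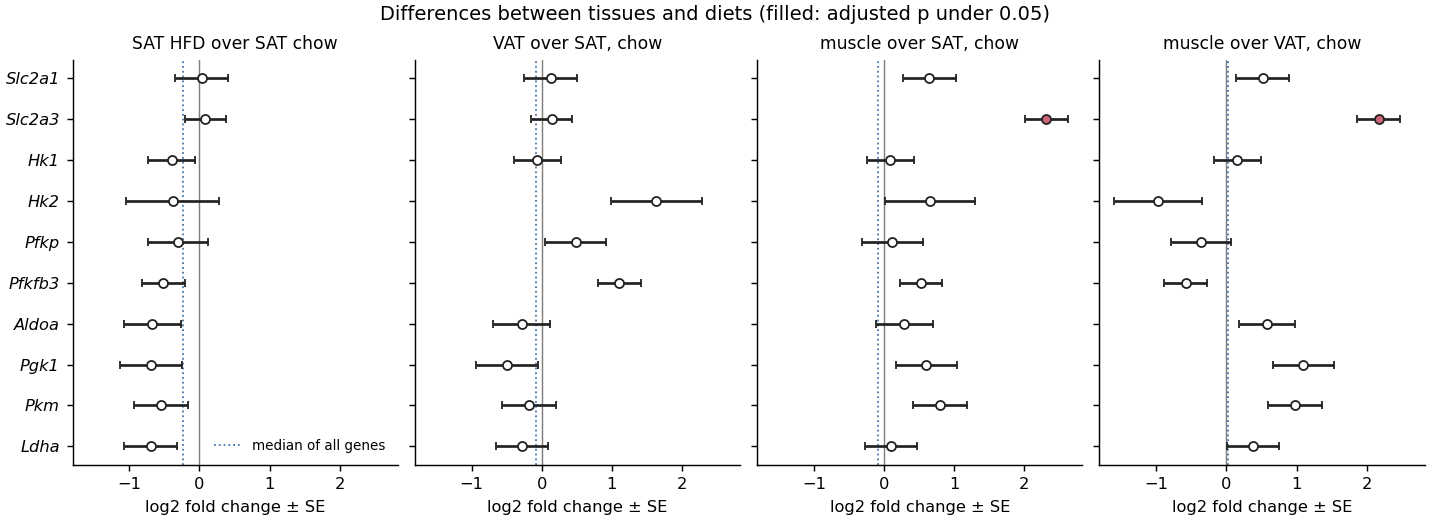
Log2 fold change ± SE (horizontal axis) of the 10 genes in 4 comparisons of 2 libraries a group, from 1 edgeR fit over the 8 libraries. Filled points passed an adjusted p of 0.05 and the dotted line is the median of all 16971 tested genes. Slc2a3 in muscle, 2.31 over SAT and 2.17 over VAT, gave the 2 filled points.

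Among the other 56 listed genes of glucose transport, glycolysis, lactate handling and their regulation, 50 were tested and 8 (16%) differed over the 4 groups, beside 7.83% of all genes. Adpgk, an ADP-dependent glucokinase, rose in muscle by 2.86 ± 0.33 over SAT on chow (adjusted p = 0.0116) and by 3.93 ± 0.35 over VAT (adjusted p = 0.00498). Slc16a3, which exports lactate, rose by 3.82 ± 0.48 in muscle (adjusted p = 0.0159) and by 2.73 ± 0.46 in VAT (adjusted p = 0.0178), both over SAT on chow. Slc16a7, a monocarboxylate transporter of high affinity, rose in VAT over SAT on chow by 3.08 ± 0.41 (adjusted p = 0.0101) and fell in muscle over VAT by 3.03 (adjusted p = 0.0129). Pdk1, which restrains the entry of pyruvate into the mitochondrion, fell by 2.59 in VAT and by 1.81 in muscle, both against SAT on chow (adjusted p = 0.00969 and 0.0479). Arrdc4, an arrestin-domain relative of Txnip that responds to glucose, rose in VAT over SAT on chow by 1.89 ± 0.34 (adjusted p = 0.0224), and Pgam1, a phosphoglycerate mutase, differed over the 4 groups (adjusted p = 0.0216). With each of the 8 libraries left out in turn, an alternative chosen after seeing the data, these differences kept their direction but not all of their calls. The muscle calls of Adpgk were lost against SAT without either muscle library and against VAT without the KO-labelled library of VAT (adjusted p up to 0.0721 and 0.0533). Those of Slc16a3 were lost without the WT library of muscle (0.0501) and, in VAT, without either VAT library (up to 0.102). Slc16a7 and Pdk1 in VAT over SAT were also lost without either VAT library, Slc16a7 in muscle over VAT and Arrdc4 without any library of VAT or muscle, and Pgam1 without any library but those of SAT on chow. Pdk1 in muscle over SAT stayed called in 1 of the 8 fits, that without the KO library of SAT on chow. The neutrophil markers, high in muscle, and the macrophage markers, high in VAT, moved with these tissue differences as with those of the members, and their part was not tested. In all, 4 of the 50 (8%) were called in VAT over SAT on chow (3 higher, 1 lower), beside 5.05% of all genes, 4 (8%) in muscle over SAT on chow (3 higher, 1 lower), beside 1.26%, 2 (4%) in muscle over VAT (1 each way), beside 1.93%, and 0 in SAT on HFD over SAT on chow, where 4 had an unadjusted p under 0.05.

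KO was compared with WT across the 4 pairs, with tissue and diet as a block and the VAT libraries entered by their labels. None of the 10 members was called by edgeR (0 at an unadjusted p under 0.05, and 0 called by DESeq2), beside 0.00589% of all genes. Their log2 differences ran from -0.44 ± 0.29 (Aldoa) to 0.30 ± 0.47 (Hk2), all with an adjusted p of 0.9999, and 4 were positive and 6 negative. The median was -0.14, beside 0.02 over all tested genes. Of the listed glycolytic enzymes other than hexokinases and phosphofructokinases (Gpi1, the aldolases, Tpi1, Gapdh, Pgk1, the mutases, the enolases and the pyruvate kinases, 3 members among them), 12 of the 13 tested had a negative difference, with a median of -0.35, and none passed the test. Over all genes 8202 of 16971 were negative. The pairs were not alike: 12 of 13 of these enzymes lay below equality in SAT on chow and 12 of 14 in muscle, but 6 of 13 in SAT on HFD and 3 of 13 in VAT. Without the SAT chow pair 4 members changed sign, Hk2 being at -0.25, Slc2a1 at -0.18, Hk1 at 0.03 and Pgk1 at 0.12, and the other 6 kept theirs.

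In the SAT chow pair, 5 members were higher and 5 lower in KO cells, all with counting intervals that excluded equality. Most genes had such intervals in this pair, 6921 of 16908 above equality and 6822 below it. Hk2 was 4.55 times as high in KO (log2 2.19, interval 1.99 to 2.40), the only member whose interval lay wholly above 2-fold, beside 19.0% of the 16908 genes compared in this pair. Slc2a1 (1.94 times) and Pfkp (1.98 times) were near that limit, and Slc2a3 and Pfkfb3 were 1.18 times as high in KO. Pgk1 (log2 -1.32, -1.40 to -1.24) and Aldoa (-1.30, -1.35 to -1.25) were lower in KO beyond 2-fold, beside 11.7% of all genes. Pkm (-0.99), Hk1 (-0.90) and Ldha (-0.89) lay just inside the limit. The median of the 10 was -0.33, beside -0.00435 over all genes. The same list of enzymes had 12 of 13 genes below equality and 7 of them beyond 2-fold, with a median of -1.11. They include Eno1, an enolase, which was at 898 CPM in WT and 314 CPM in KO, Gpi1, glucose-6-phosphate isomerase, at 569 and 263 CPM, and Gapdh at 107 and 30.1 CPM. Gapdh has many processed copies in the mouse genome, so that its count is uncertain.

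The folds of this pair moved with gene length. The median log2 ratio of KO to WT was -0.54 among the shortest genes (1 of 5 equal bins, up to 1756 bases) and 0.64 among the longest (from 6841 bases), against at most 0.15 in size at either end in the other 3 pairs. Subtracting the median of genes of like length left Hk2 at 2.15 and took Slc2a1 to 1.25 and Hk1 to -1.40, both then beyond 2-fold, while Pfkp, the longest member, went from 0.99 to 0.13. Slc2a3 and Pfkfb3 turned to -0.11 and -0.08. Pgk1 and Aldoa were then at -0.998 and -0.81, inside the limit, and Eno1 at -1.56 and Gpi1 at -1.22. The median of the 10 was then -0.36. Several other measures moved with these differences. By sum, the stromal markers were 3.20 times and the mural markers 2.88 times as high in the KO library. The neutrophil markers were 3.64 times, the erythroid markers 3.57 times, the T cell markers 2.56 times and the macrophage markers 1.86 times as high in the WT library. The mitochondrial RNA mt-Co1 was at 18510 CPM in WT and 9446 CPM in KO, and Malat1 was low in WT. Their part was not tested.

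**Figure D4:**
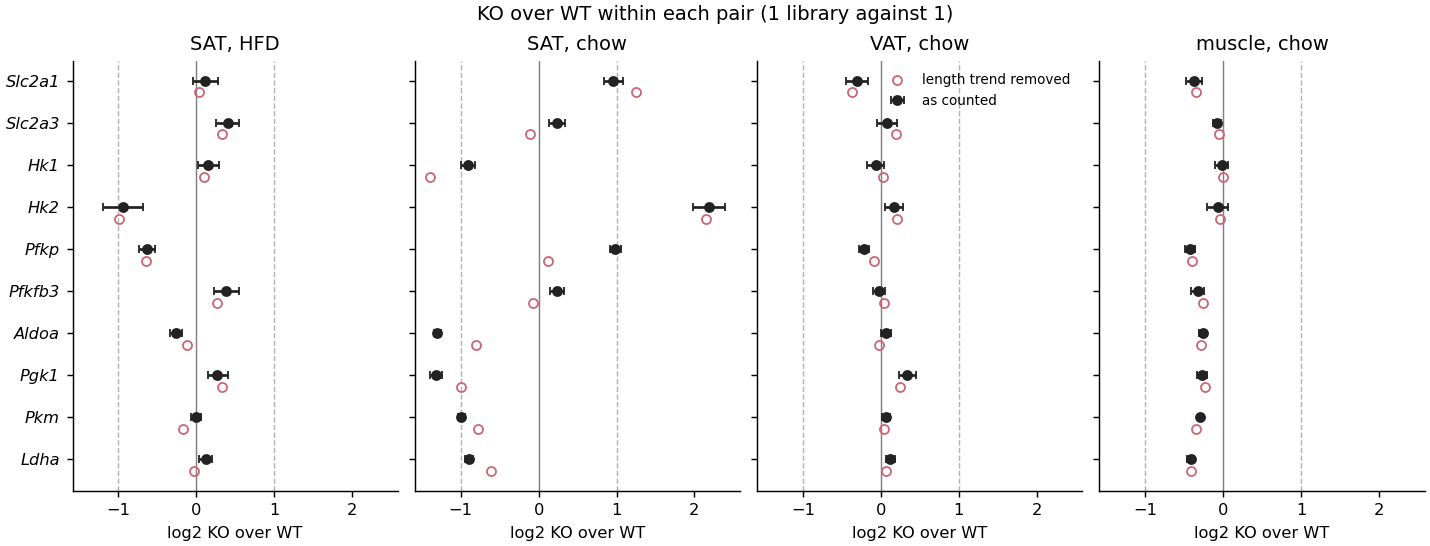
Log2 ratio of KO to WT (horizontal axis) of the 10 genes within each pair of 1 WT and 1 KO library. Black points are the counted ratios with 95% Clopper-Pearson intervals, open red points the ratios after the median of genes of like length was subtracted, and dashed lines mark 2-fold. Hk2 reached 2.19 in SAT on chow and -0.94 in SAT on HFD, and the members of the VAT and muscle pairs all lay within 2-fold.

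In SAT on HFD, no member passed 2-fold in either direction, beside 12.7% of the 15839 genes higher and 11.1% lower. Hk2 (-0.94, -1.20 to -0.68) and Pfkp (-0.63, -0.73 to -0.54) were lower in KO, opposite to SAT on chow. Slc2a3 (0.40), Pfkfb3 (0.38) and Pgk1 (0.27) were higher, and Pkm was level (0.00, -0.07 to 0.06). The median was 0.12, beside 0.04 over all genes. The myeloid hexokinase Hk3 was counted 83 times in WT and 2 times in KO, a log2 ratio of -5.90 with a counting interval of -9.37 to -4.40. In this pair the macrophage markers summed to 341 and 213 CPM (WT and KO), and the neutrophil markers went the other way, 69.8 and 96.7 CPM. Their part was not tested. Hk2 was 0.548 (0.472 to 0.636) times Hk1 per length in WT and 0.257 (0.224 to 0.295) in KO. A test of whether the KO effect differed between SAT on HFD and the 3 chow pairs called 0 of 10 members by edgeR and 0 by DESeq2, beside 0% of all genes, with 0 members and 2083 of all genes at an unadjusted p under 0.05. The nearest member was Hk2 (-1.67 ± 0.94, adjusted p = 0.584).

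In VAT, 6 members were higher and 4 lower in the library labelled KO, none beyond 2-fold, beside 2.40% of the 16439 genes higher and 2.09% lower. The values ran from -0.30 (Slc2a1, -0.44 to -0.16) to 0.34 (Pgk1, 0.23 to 0.44), with a median of 0.06 beside 0.01. Hk2 was 0.17 higher and Pfkfb3 was level at -0.03 (-0.10 to 0.05). Marker sums differed in this pair too. The mural markers were 3.26 times, the erythroid markers 1.93 times and the stromal markers 1.39 times as high in the library labelled KO. Skeletal muscle fibre markers were 9.57 times, endothelial markers 1.31 times and neutrophil markers 1.28 times as high in that labelled WT. Their part was not tested.

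In muscle, all 10 members were lower in KO, 8 of them with an interval that excluded equality and none beyond 2-fold, beside 2.75% of the 16967 genes higher and 2.05% lower. Over all genes, 4995 had an interval below equality and 4524 one above it. The values ran from -0.43 (Pfkp) and -0.42 (Ldha, -0.47 to -0.37) to -0.02 (Hk1), with a median of -0.28 beside -0.00533 over all genes. Slc2a1 stood at -0.38 and Pfkfb3 at -0.33, and Slc2a3, the member most raised in this tissue, at -0.08 (-0.13 to -0.03). Scaling by library totals turned the 3 members nearest equality, to 0.15 (Hk1), 0.10 (Hk2) and 0.09 (Slc2a3), and DESeq2 size factors turned Hk1 to 0.02, while the other 7 stayed lower. The list of glycolytic enzymes had 12 of 14 genes below equality, and lactate and pyruvate handling 12 of 15, with a median of -0.34. Markers of other cells and a mitochondrial RNA also differed in this pair. By sum the erythroid markers were 5.20 times (701 and 135 CPM in WT and KO), the macrophage markers 2.02 times and the T cell markers 1.48 times as high in WT, and mt-Co1 was at 14390 CPM in WT and 9343 CPM in KO. The stromal markers were 1.49 times, the mural markers 1.67 times, the endothelial markers 1.26 times and the neutrophil markers 1.15 times as high in KO, and Hk3, at 0.27, was higher in KO. Their part in the members' values was not tested.

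**Figure D5:**
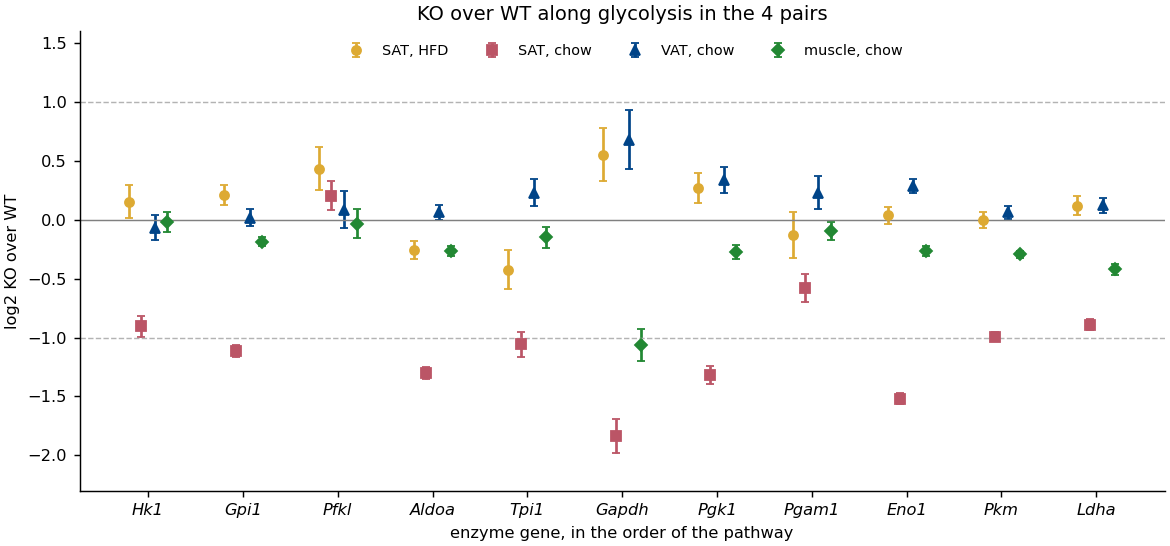
Log2 ratio of KO to WT (vertical axis) of 11 enzyme genes in the order of the pathway, within each pair, with 95% Clopper-Pearson intervals. Dashed lines mark 2-fold. In SAT on chow all but Pfkl lay below equality, from -0.58 (Pgam1) to -1.83 (Gapdh), but Hk2 (2.19) and Pfkp (0.99), which serve the steps drawn as Hk1 and Pfkl, are not drawn and lay above it, while in SAT on HFD and VAT the same genes lay between -0.43 and 0.68.

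Of 2 regulators of the pathway, Hif1a, the hypoxia-inducible subunit, was higher in KO in SAT on HFD (0.43) and on chow (0.46) and lower in muscle (-0.69, -0.78 to -0.60), and in VAT it stood at 0.16 for the library labelled KO over that labelled WT. Txnip, which restrains glucose uptake, was at 906 CPM in WT and 470 CPM in KO of SAT on chow (-0.95) and lay between -0.10 and 0.21 in the other pairs. Across the 4 pairs 0 of the 50 other genes tested passed the edgeR test, with 0 at an unadjusted p under 0.05. Beyond 2-fold within a pair, 2 of the other genes were higher and 5 lower in SAT on HFD (47 compared), beside 12.7% and 11.1% of all genes. In SAT on chow 2 were higher and 5 lower (48 compared), beside 19.0% and 11.7% of all genes, so that the lower counts were near the share over all genes and the higher ones under it in both pairs. None passed 2-fold in VAT (49 compared) or muscle (51 compared), beside 2.05% to 2.75% of all genes in either direction.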

How the data were processed

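RNA of FACS-sorted mG+ cells was sequenced by the authors, who deposited raw counts per Ensembl gene (GRCm38) with no normalization. HISAT2 2.0.5 is named in the submitters' processing notes, and the counting program and the use of strand are not given in the sources used here. Libraries were grouped by tissue, diet and genotype as labelled, with 1 library a group, and whether mice were pooled is not stated, so that p-values measure the spread between these libraries.

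Counts were scaled by TMM (edgeR 4.0.16) and tested over 16971 genes (mean count 10 or more) by 1 quasi-likelihood model of tissue and diet plus genotype over all 8 libraries, with Benjamini-Hochberg adjustment at 0.05. The difference in KO effect between SAT on HFD and the chow pairs was fitted with an added term. The pairing of WT and KO comes from tissue and diet, not from replicate numbers. Within pairs no test was made. The log2 ratio used a prior count of 0.5 and an exact conditional binomial (Clopper-Pearson) interval of 95% (scipy 1.17.1), and a gene was called when that interval lay wholly beyond 2-fold. Per-length values divide by the length in the deposited table. The fit was also run on simulated counts with the same dispersion for every gene. Apart from the changes put in, these had no tissue differences and no length trend, unlike the data. No result here rests on them. All 10 members have the same coordinates in GENCODE M21. Named genes are all members, a set of isoenzymes and pathway genes, and pathway genes called in a comparison. Members, gene lists and marker lists were chosen with earlier results of these data known. DESeq2 1.42.0, other scalings, filters and left-out libraries were alternatives.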

Additional observations from a re-analysis of the deposited data

Results flagged for a closer look

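For 5 of the 10 members the counting intervals of KO over WT lay on opposite sides of equality in the 2 SAT pairs, which differ by diet. Intervals off equality were common over all genes. In SAT on HFD 6067 of 15839 genes had an interval above equality and 5430 one below it. In SAT on chow these numbers were 6921 and 6822 of 16908. The share of all genes with intervals on opposite sides in the 2 pairs was not counted, so that 5 of 10 is not read as a result about the members. The log2 ratio in SAT on HFD minus that in SAT on chow was -3.12 for Hk2, -1.62 for Pfkp, 1.59 for Pgk1, 1.06 for Hk1 and 1.01 for Ldha. With 1 library per genotype and diet the difference between the 2 pairs was not tested. After the median of genes of like length was subtracted, Hk2 stood at -0.99 and 2.15 in the 2 pairs and Pgk1 at 0.33 and -0.998, while Pfkp stood at -0.65 and 0.13. Hk1 stood at 0.10 (-0.034 to 0.24) and -1.40 and Ldha at -0.03 (-0.11 to 0.047) and -0.61, so that for these 2 genes the interval in SAT on HFD then spanned equality. Slc2a3, not among the 5, then lay on opposite sides, at 0.32 (0.18 to 0.47) and -0.11 (-0.21 to -0.0015).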

How the results depend on the processing

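The direction of Slc2a3 in muscle over SAT on chow and over VAT held under every alternative run. The filter of at least 1 count and the DESeq2 test called more genes: 41 and 19 for KO over WT across the pairs, 3262 and 3323 over the 4 groups, 289 and 246 for SAT on HFD over SAT on chow, 2116 and 2289 for VAT over SAT, 971 and 1063 for muscle over SAT, 1166 and 1256 for muscle over VAT, and 670 and 324 for the difference in KO effect. Without the genotype term muscle over SAT had 339 calls and muscle over VAT 542. Without the block for tissue and diet (no pairing of KO with WT) 0 genes were called for KO over WT. Members called over the 4 groups numbered 1 with library totals and 4 with the filter of at least 1 count, and in VAT over SAT 1 with that filter, with DESeq2 and without the genotype term. Within SAT on chow, members higher beyond 2-fold numbered 2 with DESeq2 size factors, 3 with library totals and 2 with the length trend removed, and those lower numbered 1 with the length trend removed. These member counts stand without the share over all genes under each setting, and are not read as results about the members. The causes were not tested.

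With 1 pair or library left out at a time, calls ranged from 0 to 2 genes for KO over WT, 510 to 3896 over the 4 groups, 0 to 308 for the diet difference, 93 to 3449 for VAT over SAT, 37 to 1761 for muscle over SAT, 41 to 1207 for muscle over VAT and 191 to 942 for the difference in KO effect. Members called ranged from 0 to 7 over the 4 groups, 0 to 4 in VAT over SAT and 0 to 3 in muscle over SAT and over VAT. For KO over WT the log2 difference ranged from -0.33 to 0.029 for Hk1, -0.25 to 0.73 for Hk2, -0.18 to 0.24 for Slc2a1 and -0.42 to 0.12 for Pgk1. For SAT on HFD over SAT on chow it ranged from -0.97 to 0.0091 for Pkm, -1.32 to 0.18 for Pgk1 and -1.18 to 0.035 for Aldoa. Over all members and tests, 50 of 770 such differences changed sign, 25 of them on leaving out a SAT chow library or pair, and none was a called difference. Each member was counted at least 243 times a library. Each tissue and diet group had 1 library per genotype.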
